A study of Mus musculus with 6 samples.

Results

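The 9 CC chemokine genes described here are Ccl2, Ccl7, Ccl12, Ccl5, Ccl9, Ccl6, Ccl3, Ccl4 and Ccl22, chosen by name among 18429 genes measured in 1362 single macrophages, and all 9 were found. CC chemokines are small secreted proteins with adjacent cysteines near their amino terminus, and they draw monocytes, T cells, dendritic cells and other leukocytes to a tissue by binding G protein-coupled receptors. Macrophages that sense lipopolysaccharide (LPS), a component of the outer membrane of Gram-negative bacteria, through the receptor TLR4 make many of them, by way of NF-kappaB and, for some, of type I interferon. Most mouse CC chemokine genes arose by duplication and still lie side by side in clusters on chromosome 11.

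Macrophages had been grown from bone marrow of wild-type and Rad21-/- genotype, and their transcripts were counted by MARS-seq, which reads mRNA 3′ ends and collapses copies by a random molecular tag (UMI). RAD21 is a subunit of cohesin, the ring complex that shapes chromatin loops. Cells of both genotypes carried creERT2 on both alleles of the Rosa26 locus, were grown in L929-conditioned medium and received 200 nM 4-hydroxy-tamoxifen 96 h after plating, so that the controls shared Cre and drug and differed in the floxed Rad21 gene. On day 7 they were left untreated or had received 10 ng/ml LPS for 2 h or 8 h. Mice of either sex, 6 weeks to 6 months old, served for the experiments in general, and the age and number of animals behind each sample are not given in the sources used here.

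Each of the 6 conditions is 1 sample, of at most 270 cells and 1417409 to 2195921 UMIs, so no difference has a replicate check, no test was run, and every interval below is an exact 95% interval for counting error only. Median UMIs per cell lay between 5577 and 7055.5. In all, 17 wells held more than 25000 UMIs, and these held 1.71% to 45.5% of the UMIs of a sample, most in wild-type cells at 2 h. Without these wells the number of members past 2-fold was the same in each comparison below. Levels are given as mean CPM, UMIs per 1000000 UMIs of a cell averaged with equal weight per cell. An added set of values thinned every cell to 3800 UMIs, which left out 21 to 47 cells per sample. Cells came from 24 library pools, each of 1 time point, and 23 pools held both genotypes, so genotypes but not time points could be compared within a pool. Rad21 itself had a mean CPM of 60.9, 50.2 and 34.2 in wild-type cells untreated, at 2 h and at 8 h, and of 4.90, 8.15 and 8.60 in Rad21-/- cells. All 8 macrophage markers were detected in every sample, at a summed mean CPM of 7745 to 10365 in wild-type and of 6164 to 6855 in Rad21-/- samples. Cd14, the LPS co-receptor and 1 of the 8, was lower in Rad21-/- cells, at 135 against 638 CPM untreated and 538 against 1825 CPM at 2 h. Of the 7 markers with at least 100 UMIs it was the only one past 2-fold between genotypes at these times. At 8 h Cd14 did not pass 2-fold, while Csf1r was at least 2-fold higher and Fcgr1 at least 2-fold lower in Rad21-/- cells. The part of Cd14 in the chemokine differences was not tested. Of the markers of other cells, 2 of 6 for dendritic cells, 2 of 8 for neutrophils, 2 of 8 for T and NK cells, 3 of 6 for B cells and 1 of 6 for mast cells, basophils and eosinophils were in the matrix, and no list summed to more than 44.9 CPM in a sample.

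The members on chromosome 11 fall into a pair of clusters. In GRCm38, Ccl2 (chr11:82035577-82037452), Ccl7 (chr11:82045712-82047525) and Ccl12 (chr11:82101845-82103399) form the first. Ccl5 (chr11:83525778-83530518), Ccl9 (chr11:83572917-83578636), Ccl6 (chr11:83587886-83593087), Ccl3 (chr11:83647843-83649378) and Ccl4 (chr11:83648624-83664683) form the second, which begins 1422 kb beyond Ccl12. Ccl22 lies alone among them at chr8:94745684-94751388. The RefSeq interval of Ccl4 includes a predicted transcript that runs into Ccl3, whereas in the older NCBIM37 annotation the genes lie 13.2 kb apart on opposite strands. Reads that fall in an interval shared by both could not be assigned with certainty. In the same older annotation the antisense gene Gm17268 covers all 1883 bases of Ccl2, and its mean CPM here was 12.0% to 19.0% of that of Ccl2 in each sample. Whether strand was used in counting is not given in the sources used here, so reads of Ccl2 and Gm17268 cannot be told apart.

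RefSeq promoter sequence (GRCm38.p6) was at hand for 5 of the 9 members, Ccl3, Ccl6, Ccl9, Ccl12 and Ccl22. The 250 bases before the start of 3 of them are shown, since Ccl9 and Ccl6 are same-strand neighbours that differed in their response to LPS, and Ccl3 was the member whose genotype difference took the opposite direction in untreated cells. Capitals mark matches, on either strand, to the letters GGAANNNCC (a form of the NF-kappaB motif), GAAANNGAA (part of the interferon response motif) or TATAAA.
Ccl9, chr11:83578637-83578886, minus strand: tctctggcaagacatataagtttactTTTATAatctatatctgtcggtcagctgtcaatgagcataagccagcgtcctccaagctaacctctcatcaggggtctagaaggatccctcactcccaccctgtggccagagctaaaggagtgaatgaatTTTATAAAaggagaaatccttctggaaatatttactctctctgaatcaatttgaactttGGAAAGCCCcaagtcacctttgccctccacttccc
Ccl6, chr11:83593088-83593337, minus strand: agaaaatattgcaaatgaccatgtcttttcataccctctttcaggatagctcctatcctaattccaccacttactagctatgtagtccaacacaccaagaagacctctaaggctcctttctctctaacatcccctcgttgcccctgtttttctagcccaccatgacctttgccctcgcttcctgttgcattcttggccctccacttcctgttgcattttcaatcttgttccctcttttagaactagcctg
Ccl3, chr11:83649379-83649628, minus strand: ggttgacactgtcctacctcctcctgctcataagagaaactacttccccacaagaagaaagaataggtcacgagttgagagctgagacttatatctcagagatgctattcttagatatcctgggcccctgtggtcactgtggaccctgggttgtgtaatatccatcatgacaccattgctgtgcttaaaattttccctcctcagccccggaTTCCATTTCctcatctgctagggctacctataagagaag
The Ccl9 window held GGAANNNCC from base 35 to base 27 before the start, and TATAAA at bases 224 to 219 and, in overlapping matches on both strands, at bases 94 to 87. The Ccl3 window held GAAANNGAA on the opposite strand at bases 39 to 31, and none of these letters was found in the Ccl6 window. Of the windows not shown, that of Ccl12 held TATAAA at bases 31 to 26 and GGAANNNCC at bases 17 to 9, and that of Ccl22 held no match. Of all 32851 promoter windows of this length, 15.7% held GGAANNNCC, 7.13% GAAANNGAA and 12.4% TATAAA. The NF-kappaB and interferon letters were shortened after longer forms had been searched, and which windows held a match differed between the forms.

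In wild-type macrophages, LPS went with far higher levels of most CC chemokines. At 2 h, 7 of the 8 members that could be compared (at least 100 UMIs over both samples) were at least 2-fold higher than in untreated cells, against 4.21% of all 6915 genes compared, and none was 2-fold lower, against 2.44%. Their median log2 ratio was 3.86, against -0.09 for all genes. At 8 h 7 of 8 were higher, against 9.52% of 5601 genes, and none was lower, against 12.5%, with a median of 4.32 against -0.17. Ccl6 was the exception at both times, and Ccl22 had too few UMIs for these counts.

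Rad21-/- macrophages also had higher CC chemokine levels after LPS. At 2 h 6 of 7 members were at least 2-fold higher than in untreated Rad21-/- cells, against 3.53% of 5609 genes, and none was lower, against 1.16%. The median log2 ratio was 5.13. At 8 h 7 of 8 members were higher, against 7.53% of 6706 genes, and none was lower, against 4.92%, with a median of 4.92 on the log2 scale. The medians over all genes were -0.03 and -0.00245. Comparisons at 2 h and 8 h share the untreated sample of their genotype.

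At each time point, most CC chemokine mRNAs were lower in Rad21-/- than in wild-type cells. In untreated cells 6 of 7 members were at least 2-fold lower, against 3.81% of 5804 genes, and none was 2-fold higher, against 1.36%. The median log2 ratio was -1.98. At 2 h 7 of 8 were lower, against 5.13% of 6720 genes, and none was higher, against 2.43%, with a median of -1.48. At 8 h 7 of 8 were lower, against 5.67% of 6354 genes, and none was higher, against 6.12%, with a median of -1.64, while the median over all genes was shifted to 0.19. Relative to that shift the median of the members was -1.83. In all 3 comparisons the member short of 2-fold was Ccl3, which in untreated cells was higher in Rad21-/-. The genotype comparisons share their samples with those of LPS against untreated.

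Together the 9 members made up 0.226% of the mean CPM total in untreated wild-type cells, 2.63% at 2 h and 3.65% at 8 h. In Rad21-/- cells they made up 0.0944%, 0.910% and 1.55%. The makeup of this output also differed between samples. In untreated wild-type cells Ccl9 was the largest part, with 31.1% of the summed mean CPM, whereas in untreated Rad21-/- cells Ccl3 held 58.3%, against 13.97% in wild-type. At 8 h Ccl5 made up a similar part in both genotypes, 31.8% in wild-type and 30.2% in Rad21-/-. Since 3′ ends are counted, each transcript gives 1 tag whatever its length, and these shares were not divided by gene length. A thinned cell held UMIs of a median of 3 members in untreated wild-type cells and of 7 at both 2 h and 8 h. In Rad21-/- cells the median was 2, 5 and 6 members, and 11.7% of untreated Rad21-/- cells held none, against 2.60% of wild-type cells.

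**Figure D1:**
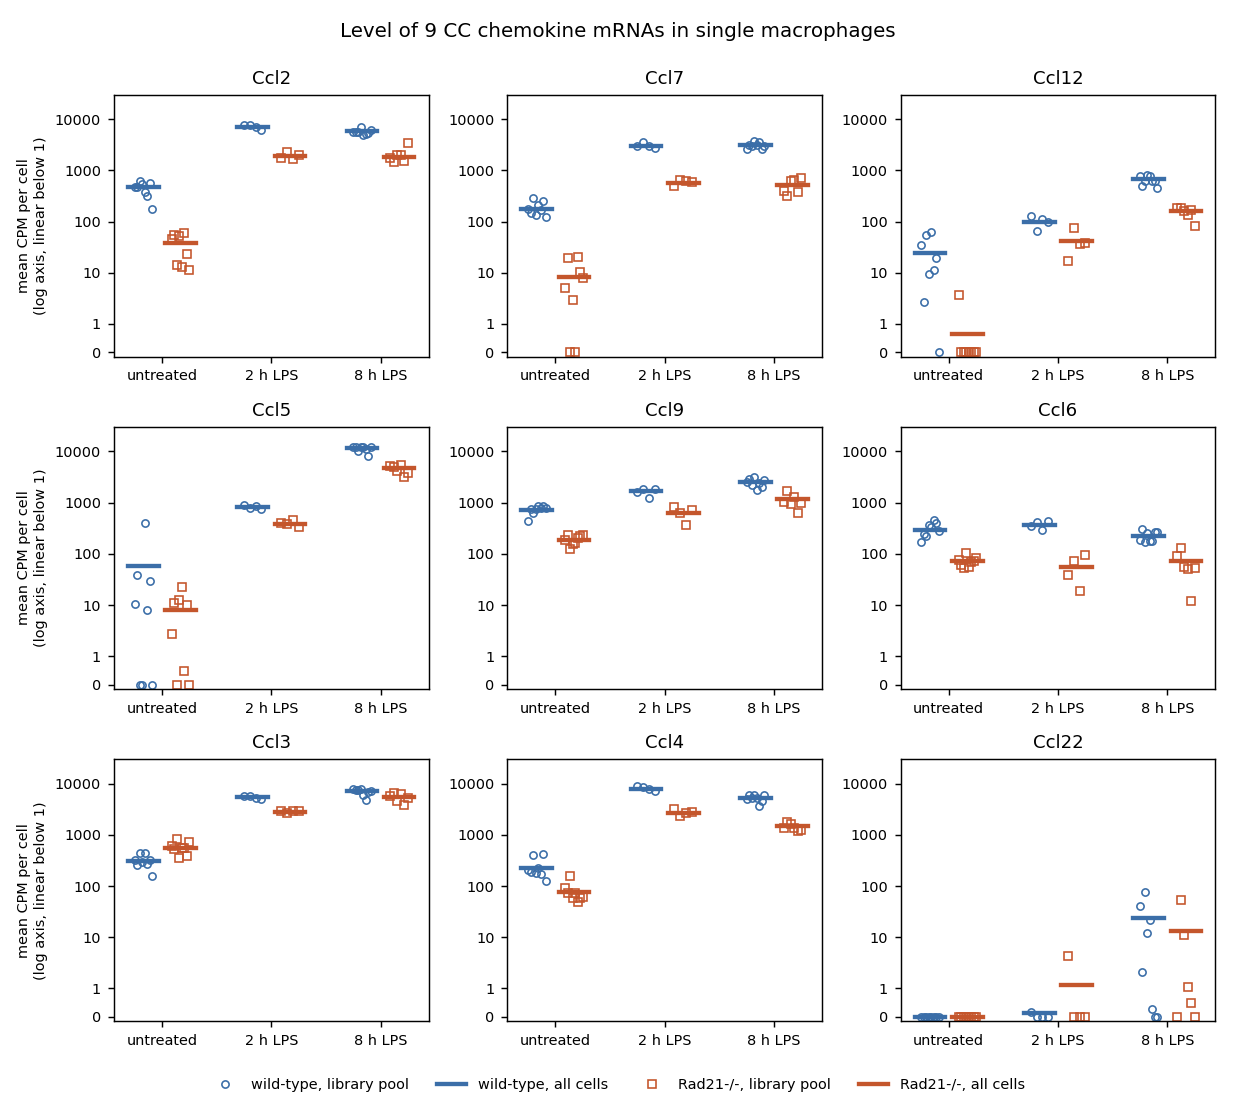
Mean CPM per cell (log axis, linear below 1) of the 9 chemokine mRNAs in untreated, 2 h LPS and 8 h LPS macrophages. Bars are the mean over all cells of a wild-type or Rad21-/- sample and open symbols are library pools with at least 10 cells of that genotype (4 to 8 per sample). Wild-type pools lie above Rad21-/- pools for most genes after LPS, and Ccl3 in untreated cells shows the opposite order.

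Ccl2, Ccl7 and Ccl12 encode ligands of CCR2, the receptor that brings inflammatory monocytes out of the bone marrow. Ccl2 had a mean CPM of 462 in untreated wild-type cells, 7011 at 2 h and 5783 at 8 h, and of 38.5, 1894 and 1817 in Rad21-/- cells. Against untreated cells these levels were 15.2-fold higher at 2 h and 12.5-fold higher at 8 h in wild-type, and 49.2-fold and 47.2-fold higher in Rad21-/-, whose untreated level was low. In either genotype the pools of 2 h and 8 h overlapped. At every time point the highest Rad21-/- pool was below the lowest wild-type pool, for example 3443 against 4998 CPM at 8 h. The level was 12.0-fold lower in Rad21-/- cells untreated, 3.70-fold lower at 2 h and 3.18-fold lower at 8 h. In the thinned cells the log2 ratios were -3.43 (interval -3.98 to -2.93), -1.91 (-2.01 to -1.81) and -1.62 (-1.71 to -1.54).

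The frequency of Ccl2-positive cells (at least 1 UMI) was 65.7% (59.3% to 71.7%) in untreated wild-type and 20.0% (15.4% to 25.3%) in untreated Rad21-/- cells. After LPS it was 100% in wild-type cells at both times, and 98.9% at 2 h and 96.9% at 8 h in Rad21-/- cells. Frequency therefore differed between genotypes in untreated cells and hardly at all after LPS. There detection was near its upper limit in both genotypes, so a difference in level could show almost only in the mean CPM of positive cells. Of the log2 ratio of Rad21-/- over wild-type in untreated cells, -1.72 came from the frequency of positive cells and -1.87 from the mean CPM of positive cells. At 2 h the same parts were -0.02 and -1.87. Untreated Rad21-/- cells held 69 Ccl2 UMIs in 54 positive cells, near the lower limit of 1 UMI each. The untreated split therefore depends on depth. A median thinned cell held 26 Ccl2 UMIs in wild-type and 5 in Rad21-/- at 2 h, and the tenth of cells with most Ccl2 held 19.2% of its UMIs in wild-type and 32.0% in Rad21-/-.

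Ccl7 followed Ccl2 from sample to sample. Its mean CPM was 178.6, 2990 and 3145 in wild-type cells untreated, at 2 h and at 8 h, and 8.24, 577 and 526 in Rad21-/- cells. It had the lowest ratio between genotypes among the members compared in untreated cells, with a level 21.7-fold lower in Rad21-/-, and was 5.18-fold lower at 2 h and 5.98-fold lower at 8 h. Thinned, the log2 ratios were -3.94 (-5.11 to -2.97), -2.32 (-2.49 to -2.16) and -2.63 (-2.79 to -2.48). Pools of the genotypes did not overlap at any time. LPS levels were 16.7-fold and 17.6-fold higher than untreated ones at 2 h and 8 h in wild-type, and 70.0-fold and 63.8-fold higher in Rad21-/-, where untreated cells held 15 Ccl7 UMIs in all. Positive cells made up 38.5% (32.3% to 45.0%) of untreated wild-type and 4.81% (2.59% to 8.09%) of untreated Rad21-/- cells. They made up 98.9% and 90.3% at 2 h and 98.8% and 88.4% at 8 h.

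Ccl12, the last of the 9 members in the first cluster, reached its higher level later than Ccl2 and Ccl7. Its mean CPM in wild-type cells was 24.0 untreated, 98.4 at 2 h and 666 at 8 h, so that the higher level came between 2 h and 8 h, with no overlap between the pools of these times. In Rad21-/- cells it was 0.656 untreated, 41.7 at 2 h and 159 at 8 h. Positive cells were 9.21%, 37.1% and 77.04% of wild-type cells and 0.370%, 17.2% and 42.4% of Rad21-/- cells. Untreated Rad21-/- cells held a single Ccl12 UMI, and the thinned log2 ratio to wild-type there was -3.92 with a wide interval, -9.33 to -1.18. Against the same single UMI, the thinned log2 ratio of LPS-treated to untreated Rad21-/- cells was 5.58 (3.0 to 10.9) at 2 h and 7.04 (4.54 to 12.4) at 8 h. In wild-type cells Ccl12 was 4.10-fold higher at 2 h, nearly all of it through frequency (parts of 2.01 and 0.03). It was 27.7-fold higher at 8 h, where transcripts per positive cell added 1.73 to a frequency part of 3.07. Thinned wild-type cells had a mean of 0.0677 Ccl12 UMIs untreated (5.73% positive) and 0.339 at 2 h (23.0% positive). Positive cells thus held few UMIs each, and near 1 UMI a higher level shows mainly as frequency. At 8 h the level was 4.19-fold lower in Rad21-/- (thinned log2 ratio -2.11, -2.41 to -1.83) and lower in 6 of 6 pools. The 2 h difference was less firm. There the log2 ratio of mean CPM was -1.22, but -0.65 with thinned cells, -0.88 with summed UMIs and -0.83 without 1 of the pools, each short of 2-fold, and Ccl12 was lower in 3 of 4 pools. At 8 h the frequency part was -0.86 and the part from transcripts per positive cell -1.21, against -0.16 and -2.42 for Ccl7.

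Ccl3 and Ccl4 encode the macrophage inflammatory proteins MIP-1alpha and MIP-1beta, which activated macrophages and T cells secrete. The mean CPM of Ccl3 was 315, 5366 and 7154 in wild-type cells untreated, at 2 h and at 8 h. In Rad21-/- cells it was 550, 2817 and 5540. Untreated Rad21-/- cells were thus above untreated wild-type cells, while after LPS they were below, and the range of pools overlapped between genotypes in untreated cells. The untreated level was 1.74-fold higher in Rad21-/- cells (thinned log2 ratio 0.98, 0.74 to 1.22), and it was higher in 8 of 8 pools that held both genotypes. At 2 h it was 1.90-fold lower (-0.94, -1.02 to -0.85) and at 8 h 1.29-fold lower (-0.29, -0.35 to -0.23), in 4 of 4 and 6 of 6 pools.

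The frequency of Ccl3-positive cells did not carry this difference. It was 70.7% (64.5% to 76.4%) in untreated wild-type and 71.9% (66.1% to 77.1%) in untreated Rad21-/- cells, and 99.5% to 100% after LPS. Positive untreated cells had a mean CPM of 446 in wild-type and 765 in Rad21-/-. Of the log2 ratio in untreated cells, 0.02 came from frequency and 0.78 from the transcripts per positive cell. The LPS ratio of Ccl3 was accordingly smaller in Rad21-/- cells, 5.12-fold at 2 h and 10.1-fold at 8 h, against 17.02-fold and 22.7-fold in wild-type.

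Ccl4, the neighbour of Ccl3 on the opposite strand, had a mean CPM of 226, 7997 and 5335 in wild-type cells and of 76.4, 2702 and 1520 in Rad21-/- cells. It was highest at 2 h in both genotypes, and the pools of 2 h and 8 h did not overlap. The ratio to untreated cells was alike in size in both genotypes, 35.4-fold at 2 h in each, and 23.6-fold in wild-type and 19.9-fold in Rad21-/- at 8 h. The level in Rad21-/- was 2.96-fold lower untreated, 2.96-fold lower at 2 h and 3.51-fold lower at 8 h, and it was lower in each of the 18 pools. Thinned, the log2 ratios were -1.41 (-1.86 to -0.98), -1.66 (-1.75 to -1.58) and -1.79 (-1.88 to -1.69). Positive cells made up 48.95% (42.5% to 55.5%) of untreated wild-type and 23.3% (18.4% to 28.8%) of untreated Rad21-/- cells, and between 98.7% and 100% of each sample after LPS.

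The balance of these neighbours thus differed by genotype. Mean CPM of Ccl3 over that of Ccl4 was 1.39 in untreated wild-type cells and 7.20 in untreated Rad21-/- cells. It was 0.671 and 1.04 at 2 h and 1.34 and 3.64 at 8 h. Over pools with at least 10 cells the ratio ranged from 0.751 to 1.94 in wild-type and from 5.22 to 11.8 in Rad21-/- untreated, from 0.653 to 0.701 and from 0.900 to 1.15 at 2 h, and from 1.17 to 1.55 and from 2.72 to 4.60 at 8 h. The ranges did not overlap at any time, and the ratio was higher in Rad21-/- in all 18 pools that held both genotypes. The ratio within pools was computed after the levels had been seen.

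**Figure D2:**
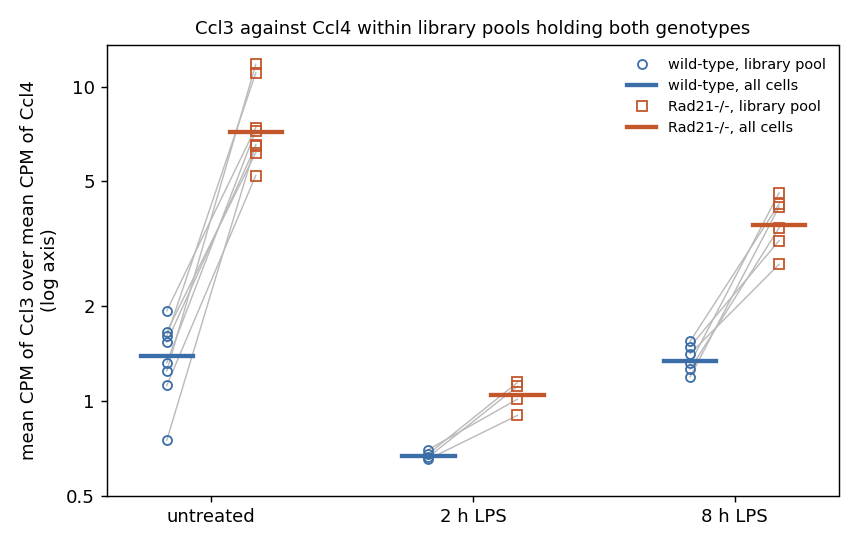
Mean CPM of Ccl3 divided by mean CPM of Ccl4 (log axis) for untreated, 2 h LPS and 8 h LPS cells. Open symbols are library pools with at least 10 cells of both genotypes (8, 4 and 6 pools), grey lines join the genotypes of a pool and bars are all cells of the sample. Every line runs upward from wild-type to Rad21-/-.

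Ccl5 encodes RANTES, which recruits T cells. Its mean CPM in wild-type cells was 58.2 untreated, 816 at 2 h and 11585 at 8 h, the highest level of any member in any sample. Rad21-/- cells had 7.93, 384 and 4686 CPM. The late level was the higher one in both genotypes by far, and pools of 2 h and 8 h did not overlap. Positive cells were 6.28%, 83.9% and 100% of wild-type and 5.19%, 71.0% and 100% of Rad21-/- cells. In wild-type cells the level was 14.02-fold above the untreated one at 2 h and 199-fold above it at 8 h. Without the 1 untreated cell with most Ccl5 UMIs, described next, it was 39.2-fold and 557-fold above. The frequency part of the log2 ratio at 2 h was 3.74 with and 3.83 without that cell, and the part from transcripts per positive cell was 0.07 with and 1.46 without it. A thinned wild-type cell at 8 h held up to 109 Ccl5 UMIs and a median of 44.5, against a median of 14 in Rad21-/-. In Rad21-/- the level was 2.13-fold lower at 2 h and 2.47-fold lower at 8 h, in all pools, with thinned log2 ratios of -1.39 (-1.63 to -1.16) and -1.29 (-1.35 to -1.24). With summed UMIs the 2 h log2 ratio was -0.99, just short of 2-fold.

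The untreated values of Ccl5 rested on few cells. Of 94 UMIs in 15 positive wild-type cells, 65 came from 1 cell, and 8 of the 15 cells, this one among them, lay in 1 pool of 27 wild-type cells. Rad21-/- cells held 15 UMIs in 14 cells. The untreated level was 7.34-fold lower in Rad21-/- with every cell and 2.94-fold lower without the cell with most UMIs in each sample, an alternative chosen after seeing the data. It was lower in 5 of 8 pools and higher in 1. The difference in frequency of positive cells, 6.28% (3.56% to 10.1%) against 5.19% (2.86% to 8.55%), was within the counting intervals.

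Ccl9 and Ccl6 encode ligands of CCR1 that myeloid cells make without stimulation. Ccl9 had a mean CPM of 701, 1664 and 2539 in wild-type cells untreated, at 2 h and at 8 h, and of 189, 630 and 1174 in Rad21-/- cells. It was the most widely detected member in untreated wild-type cells, in 88.3% (83.5% to 92.1%), and in 51.1% (45.0% to 57.2%) of untreated Rad21-/- cells. LPS levels were 2.37-fold higher at 2 h and 3.62-fold higher at 8 h in wild-type, and 3.34-fold and 6.22-fold higher in Rad21-/-. Within each genotype the pools of 2 h and 8 h overlapped. In Rad21-/- the level was 3.71-fold lower untreated, 2.64-fold lower at 2 h and 2.16-fold lower at 8 h, and the pools of the genotypes did not overlap. Thinned, the log2 ratios were -1.95 (-2.22 to -1.68), -1.49 (-1.67 to -1.32) and -1.17 (-1.29 to -1.06).

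Ccl6, which lies 9.25 kb from Ccl9, was the member without a 2-fold difference after LPS in either genotype. Its mean CPM was 291, 364 and 224 in wild-type cells and 73.3, 56.1 and 73.4 in Rad21-/- cells, and within each genotype the pools of the 3 times overlapped. Thinned log2 ratios to untreated cells were 0.46 (0.19 to 0.74) and -0.25 (-0.54 to 0.04) in wild-type and -0.26 (-0.85 to 0.30) and -0.33 (-0.86 to 0.20) in Rad21-/- at 2 h and 8 h, and 3 of the 4 intervals include 0. Between genotypes Ccl6 differed as much as the inducible members. The Rad21-/- level was 3.97-fold lower untreated, 6.48-fold lower at 2 h and 3.06-fold lower at 8 h, and no Rad21-/- pool reached a wild-type pool at any time. Frequency and transcripts per positive cell both contributed, with parts of -0.85 and -1.14 untreated and -1.34 and -1.36 at 2 h.

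Ccl22, a ligand of CCR4 that attracts regulatory T cells, was seen in few cells and mostly at 8 h. No UMI was found in 239 untreated wild-type or 270 untreated Rad21-/- cells, and the limit of 3 counts for a count of 0 puts the share of such cells at up to 1.26% and 1.11%. At 2 h 2 cells of either genotype held it, 1.08% (0.131% to 3.83%). At 8 h 12 wild-type cells (4.67%, 2.44% to 8.01%) and 11 Rad21-/- cells (4.91%, 2.48% to 8.62%) did, at a mean CPM of 24.0 and 13.4. Against 3 counts over the summed UMIs of the untreated sample, the 8 h mean CPM was 11.8-fold higher in wild-type and 8.14-fold higher in Rad21-/- cells. That limit weights cells by depth and the mean CPM does not, so these folds are not strict lower bounds. The thinned log2 ratio between genotypes at 8 h was -1.15 with an interval of -2.55 to 0.09, and pools of 8 h ranged from 0 to 75.6 and from 0 to 53.02 CPM. A genotype difference of Ccl22 was not detectable at this depth.

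**Figure D3:**
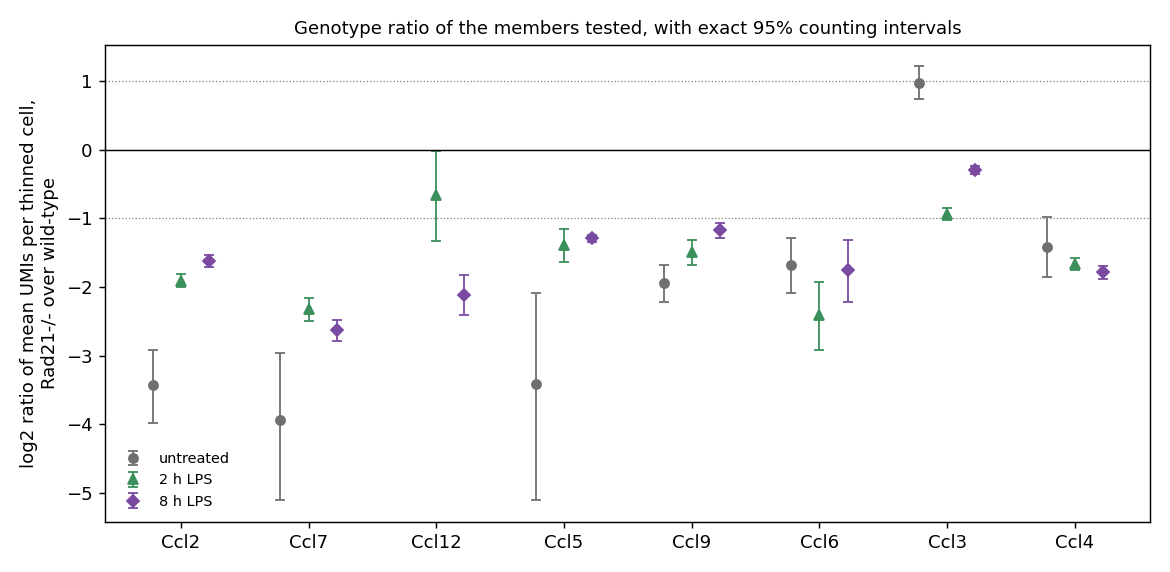
Log2 ratio of mean UMIs per thinned cell, Rad21-/- over wild-type, for the 8 members compared, in untreated cells (circles), at 2 h (triangles) and at 8 h (diamonds), with exact 95% counting intervals. Dotted lines mark 2-fold. Ccl3 in untreated cells is the 1 value above 0, Ccl12 lacks an untreated value because fewer than 100 UMIs were found, and all other values lie below 0.

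Detection of neighbouring chemokines in the same cell could be compared where both were found in 5% to 95% of thinned cells. Direct neighbours are here members of a cluster with no other of the 9 members between them. Other annotated genes lie between some of them, such as Ccl11 between Ccl7 and Ccl12. In 192 untreated wild-type cells Ccl7 was detected in 41.8% (32.5% to 51.6%) of cells with Ccl2 and in 15.9% (8.72% to 25.6%) of cells without it. These intervals do not overlap, the log2 odds ratio was 1.89, and it was 2.01 with pools as strata. Over all 9799 other genes in the same range, the median log2 odds ratio with Ccl2 was 0.00975 and the 95th percentile 1.11. Ccl12 was found in 11.9% (4.91% to 22.9%) of cells with Ccl7 and in 3.01% (0.825% to 7.52%) of those without it, and Ccl4 in 47.7% (38.2% to 57.4%) of cells with Ccl3 and in 30.9% (21.1% to 42.1%) of those without it. Their intervals overlap. Of the 6 pairs of direct neighbours 5 had a log2 odds ratio above 0, with a median of 0.87, and of 15 pairs between the clusters 12 did, with a median of 0.42. Of 7 pairs within a cluster that are not direct neighbours 3 did, with a median of -0.22. Direct neighbours ranged from -0.19 to 2.04 and pairs between the clusters from -1.78 to 1.94. The highest between the clusters was Ccl12 with Ccl4, and Ccl7 with Ccl4 reached 1.30. Over all genes the 95th percentiles were 1.88 for Ccl12, 1.15 for Ccl7, 1.11 for Ccl3 and 1.09 for Ccl4. The neighbours Ccl3 and Ccl4, at 1.02, lay below both of theirs. For the neighbours Ccl9 and Ccl6 the intervals also overlap, as Ccl6 was found in 48.4% (40.2% to 56.6%) of cells with Ccl9 and in 35.9% (21.2% to 52.8%) of those without it.

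In 223 untreated Rad21-/- cells Ccl7 and Ccl12 were too rare for such pairs. Ccl4 was found in 19.6% (13.4% to 27.0%) of cells with Ccl3 and in 12.5% (6.16% to 21.8%) of cells without it, a log2 odds ratio of 0.73. The log2 odds ratio of Ccl6 with Ccl4 was 1.03 and that of Ccl9 with Ccl6 was 0.0135. All of these intervals overlap, so that no pair stood apart from counting error. After LPS nearly every cell held Ccl2, Ccl3 and Ccl4, so that detection of these members no longer tells cells apart. Some pairs of other members could still be compared. In Rad21-/- cells at 2 h, 3 of 3 pairs of direct neighbours had a log2 odds ratio above 0, from 0.43 to 0.88. With pools as strata the lowest of them, Ccl9 with Ccl6, was at -0.0247, while Ccl7 with Ccl12 was at 0.82 and Ccl5 with Ccl9 at 1.10. At 8 h Ccl7 with Ccl12 was at -0.0135 and Ccl9 with Ccl6 at -0.48. With all UMIs these 8 h values were -0.25 and 2.61. The intervals of each of these pairs overlap. Between the clusters 5 of 6 pairs were above 0 at 2 h and 1 of 4 at 8 h. In wild-type cells no pair of direct neighbours could be compared after LPS.

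For LPS-treated cells the number of UMIs per thinned cell was therefore also compared between members by Spearman correlation. This measure was chosen after seeing the data and is given as a description. The points are cells of 1 sample with the same number of UMIs each, and they share pools. In 165 wild-type cells at 2 h the correlation was 0.64 for Ccl2 with Ccl7 and 0.67 for Ccl3 with Ccl4. Within the 4 pools it ranged from 0.56 to 0.67 and from 0.63 to 0.65. Ccl2 correlated with Ccl3 at 0.43 and with Ccl4 at 0.42, across the clusters. Among 463 genes with at least 1 UMI per cell, the median correlation with Ccl2 was 0.00456 and the 95th percentile 0.17. Not every pair of neighbours behaved so, since Ccl5 with Ccl9 reached 0.0995, Ccl9 with Ccl6 0.0756, and Ccl6 with Ccl3 -0.22.

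At 8 h wild-type cells showed 0.56 for Ccl2 with Ccl7, 0.51 for Ccl3 with Ccl4 and 0.33 for Ccl5 with Ccl9. The 95th percentiles over 505 genes, again not matched in UMIs per cell, were 0.12 to 0.17 for these members. Ccl12, far higher at this time, correlated with Ccl7 at 0.11, below the 95th percentiles of Ccl7 (0.14) and of Ccl12 (0.16). Across the clusters, Ccl2 correlated with Ccl3 at 0.24 and with Ccl4 at 0.12.

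Rad21-/- cells had weaker correlations within the first pair of neighbours. At 2 h the value was 0.22 for Ccl2 with Ccl7 (pools 0.00252 to 0.36) and 0.40 for Ccl3 with Ccl4 (0.14 to 0.48), and at 8 h 0.33 and 0.42. Rad21-/- cells also held fewer of these UMIs, at 2 h a mean of 7.16 for Ccl2 and 2.32 for Ccl7 per thinned cell against 26.9 and 11.6 in wild-type. With wild-type UMIs thinned at random to the Rad21-/- mean of each gene, the mean over 20 draws was 0.42 (0.32 to 0.52 over draws) for Ccl2 with Ccl7 at 2 h and 0.36 (0.27 to 0.46) at 8 h. It was 0.51 (0.46 to 0.61) for Ccl3 with Ccl4 at 2 h and 0.42 (0.37 to 0.51) at 8 h. At matched counts the values of the genotypes at 8 h were thus close for both pairs, and at 2 h those of Rad21-/- cells were lower. Ccl5 with Ccl9 had the opposite order, 0.22 in Rad21-/- cells against 0.0408 (-0.05 to 0.12) in wild-type cells at matched counts at 2 h, and 0.47 against 0.24 (0.16 to 0.34) at 8 h. The draws cover random thinning only and not the sampling of cells, and at 2 h the Rad21-/- pools of all 3 pairs reached into the range of the draws. In Rad21-/- cells at 8 h the highest of these correlations was that of Ccl5 with Ccl9, 0.47 (pools 0.34 to 0.58), followed by Ccl3 with Ccl4 and by Ccl5 with Ccl3, 0.40.

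**Figure D4:**
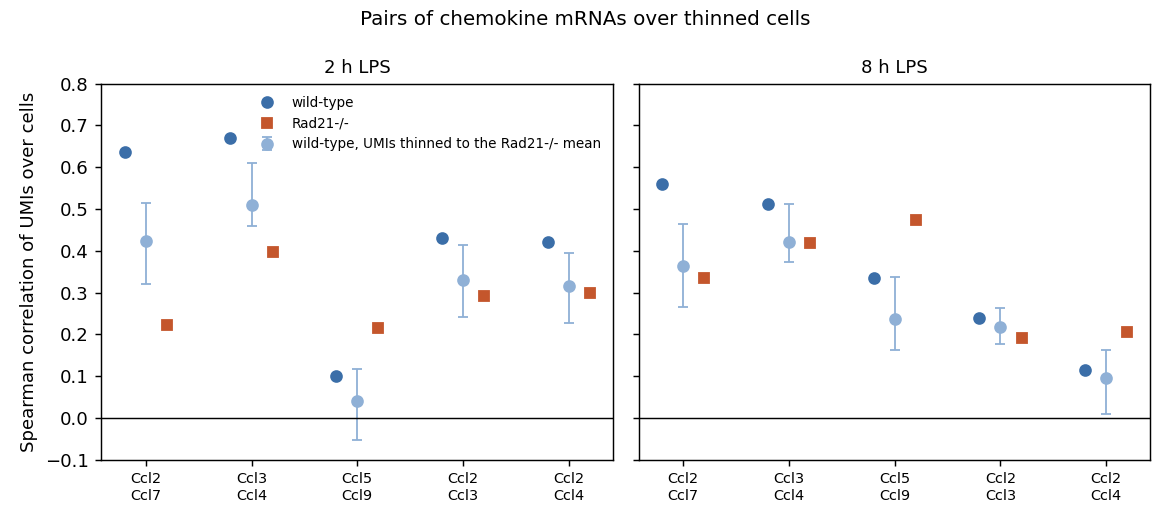
Spearman correlation of UMIs per cell for 5 pairs of chemokine mRNAs in cells thinned to 3800 UMIs, at 2 h and 8 h of LPS. Dark circles are wild-type cells (165 at 2 h and 228 at 8 h), squares Rad21-/- cells, and light circles wild-type cells with the UMIs of each gene thinned to the Rad21-/- mean, with bars for the range over 20 draws. Matching the counts lowers each wild-type value, and the bars do not cover the sampling of cells.

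Over the 6 samples the patterns of Ccl2 and Ccl7 were alike, with a Pearson correlation of log2(mean CPM + 1) of 0.996, whereas Ccl6 had its highest correlation with another member at 0.55, with Ccl9. These values rest on 6 points that share genotypes and times. Among 6088 genes with at least 100 UMIs and a range of at least 1 on the log2 scale, the most alike to Ccl2 was Gm17268 at 0.999, the antisense gene described above, followed by Marcksl1 at 0.991. For Ccl7 they were Gm17268 at 0.997 and BC048502 at 0.984, for Ccl12 Rab10 at 0.993 and C3 at 0.986, and for Ccl5 Gm4918 at 0.996 and Lcp2 at 0.994. Ccl9 was most like Parp14 at 0.999 and Helz2 at 0.994, and Ccl6 most like Myof at 0.986 and Gm11639 at 0.985. The nearest to Ccl3 were Il12b at 0.982 and Ier3 at 0.978, those to Ccl4 Klf7 at 0.990 and Tnfaip3 at 0.986, and those to Ccl22 Lcn2 at 0.998 and Spata13 at 0.996.

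Few other annotated genes within 100 kb of the outer members had enough UMIs to compare, at most 3 around either chromosome 11 cluster in a comparison. Of 7 around the first cluster, 3 were in the matrix. Gm17268, placed over Ccl2 in the older annotation, is not counted among these 7. Its mean CPM was 66.2, 1177 and 1098 in wild-type cells untreated, at 2 h and at 8 h, and 4.62, 265 and 300 in Rad21-/- cells. Ccl8, another chemokine gene, was 7.99-fold higher at 8 h than untreated in wild-type cells and 5.57-fold lower in Rad21-/- than in wild-type at 8 h, with a mean CPM of 9.94 against 55.4. Asic2, an ion channel gene, was compared throughout and stayed short of 2-fold, at 86.4 to 114.4 CPM. Of 20 around the second cluster, 7 were in the matrix. Wfdc17, a gene with a whey acidic protein domain that lies beyond Ccl4, had 64.1, 67.5 and 363 CPM in wild-type and 32.0, 44.0 and 61.5 CPM in Rad21-/- cells untreated, at 2 h and at 8 h. It passed 2-fold at 8 h against untreated in wild-type and between genotypes untreated and at 8 h. The pseudogene Rpl9-ps1, beside Ccl3, stayed between 43.4 and 68.3 CPM. None of the 12 genes around Ccl22 passed 2-fold where it could be compared, 2 genes in 2 of the comparisons. Ccl17, also a CCR4 ligand, was too low to compare, at 25.01 CPM in wild-type and 0.541 CPM in Rad21-/- cells at 8 h and at 0 in the other 4 samples.

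Among the remaining genes of the chemokine system, 7 of 12 other CC ligands, 7 of 15 CC receptors and 9 of 13 CXC ligands on the lists were in the matrix. Ccl8 was the 1 other CC ligand with enough UMIs to compare, as above. Of the 2 receptor genes compared after LPS, Ccrl2, an atypical receptor that binds chemerin, was higher, 51.1-fold at 2 h and 29.2-fold at 8 h in wild-type and 43.6-fold and 17-fold in Rad21-/-, and neither passed 2-fold between genotypes. CXC ligands, which include neutrophil attractants, were at least 2-fold higher after LPS in 4 of 6 and 6 of 7 genes at 2 h and 8 h in wild-type and in 4 of 5 and 5 of 6 in Rad21-/-. Cxcl1 was at 0 in both untreated samples. Against the same limit of 3 counts, and again not as a strict bound, it was 1116-fold higher at 2 h in wild-type and 1176-fold higher in Rad21-/-. Between genotypes 1 of 2 CXC ligands was lower in Rad21-/- untreated (Cxcl16, 4.12-fold), 3 of 6 at 2 h (Cxcl3 5.07-fold, Cxcl2 2.56-fold and Cxcl10 2.39-fold) and 2 of 7 at 8 h (Cxcl11 26.4-fold and Cxcl10 5.20-fold). The members passed 2-fold in 6 of 7, 7 of 8 and 7 of 8 in the same comparisons. Of 6 factors that control chemokine mRNA decay, Zc3h12a, an endoribonuclease, and Zfp36, which binds AU-rich elements, were higher after LPS in both genotypes, 17.7-fold and 12.9-fold at 2 h in wild-type and 16.0-fold and 14.4-fold in Rad21-/-. Zfp36l1 was also at least 2-fold higher at 2 h in wild-type, but not in Rad21-/- cells. At 8 h Zfp36 was 4.58-fold lower in Rad21-/- than in wild-type cells.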

How the data were processed

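Single bone marrow-derived macrophages were measured by MARS-seq in 6 samples. The authors demultiplexed reads by pool and cell barcode, mapped them with GEMTools to GRCm38.p4 (Gencode M8), removed wells by spike-in, mapping and read number, collapsed UMIs, and deposited raw counts per gene and cell. No normalization was applied, so CPM was computed here from each cell's total. Cells were assigned to samples by the names of their columns. The members and gene lists were chosen with earlier results of these data known.

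Mean CPM per cell was compared between samples as a log2 ratio with 1 UMI at the depth of the sample added to each side. Genes with at least 100 UMIs over both samples were counted at 2-fold. Intervals are exact at 95%: Clopper-Pearson for shares, and conditional on the sum of UMIs for ratios of thinned counts. Named genes were all members, listed or neighbouring genes past 2-fold (up to 4 per list and direction), the 2 genes most like each member, and Rad21. Odds ratios had 0.5 added to each count. Steps were tested on simulated data. Python 3.11.15, numpy 2.4.6, pandas 2.3.3, scipy 1.17.1 and matplotlib 3.10.9 were used. Alternatives were cells thinned to 3800 UMIs, summed UMIs, no wells above 25000 UMIs, equal weight per pool, each pool left out, centring on the median of all genes, a minimum of 20 UMIs and 3-fold.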

Additional observations from a re-analysis of the deposited data

Results flagged for a closer look

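Ccl3 was flagged because its genotype ratio took opposite directions in untreated and in LPS-treated cells, beyond the counting intervals. The log2 ratio of mean CPM, Rad21-/- over wild-type, was 0.80 untreated, -0.93 at 2 h and -0.37 at 8 h. The direction was the same in 8 of 8, 4 of 4 and 6 of 6 library pools. With 1 sample per condition the difference between times was not tested. No other member had intervals on opposite sides of 0 between times, or between genotypes in its ratio of LPS to untreated.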

How the results depend on the processing

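No paired analysis was possible because each condition is 1 sample. With summed UMIs, which weight deep wells, the median log2 ratio of the members at 2 h was 3.46 for wild-type against untreated and -1.10 between genotypes, and the genotype median at 8 h was -1.53. Centred on all genes, the 8 h genotype median was -1.83. At 3-fold, 3 members instead of 7 were lower in Rad21-/- at 2 h. The share of all genes past 3-fold was not computed, so this count has no background. Leaving out each pool gave 6 to 7 members past 2-fold at 2 h between genotypes, and the same count as with all pools in the other 6 comparisons. Other alternatives kept these counts within 1.5 times and the direction of each median. Shares of positive cells depended more on depth and threshold. With thinned cells, at least 2 UMIs or no deep wells, 63 shares moved outside their counting interval and 99 did not. For example, Ccl2-positive cells in untreated Rad21-/- were 20.0%, and 13.5% when thinned. With all UMIs, at least 2 UMIs or pools as strata, 30 log2 odds ratios of co-detection moved by more than 1. Among single members, those that lost the 2-fold difference were Ccl12 and Ccl5 between genotypes at 2 h, with the values given above. Ccl6 changed sign between untreated and LPS-treated Rad21-/- cells, where it was near 0: at 2 h it was -0.38, and 0.0131 with summed UMIs. Of 42 alternative values of the medians without the pools left out, 38 moved by less than the counting error. A single sample per condition leaves the spread between cultures unknown, and a UMI count of 0 in a cell does not show that the transcript was absent.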
